A study of Mus musculus with 28 samples.

Results

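Resident macrophages at the borders of the brain are recognised by a small set of transcripts, and 9 of these that do not encode lectins are described here over 28 libraries of macrophages sorted from the brains of bone marrow chimeras. The genes were Pf4, Lyve1, Cd163, Folr2, Cbr2, F13a1, Stab1, Ccl24 and Aldh1a2. They were taken by symbol from the table of 14617 genes, all 9 were present, and all 9 passed the filter on low counts that left 12327 genes for testing. The assay was MARS-seq, in which the 3′ end of a polyadenylated RNA is tagged and each tagged molecule is counted once by its unique molecular identifier (UMI).

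The hosts were Cx3cr1 gfp/+ mice, whose microglia and resident macrophages are marked by GFP, and all of them were lethally irradiated. They received marrow of the genotype Vav-Cre: hDNMT3A fl/fl (mutant) or of the genotype hDNMT3A fl/fl without Cre (control), so both kinds of marrow carried the floxed human DNMT3A allele, and Vav-Cre recombines it in blood-forming cells and their descendants. At 16 weeks after the transplantation (BMT 16w), GFP+ host cells and GFP- cells were sorted from the parenchyma, where the labels call them microglia, and as leptomeningeal macrophages. The GFP- cells are called donor cells below. Donor microglia (Control_MoMg and Mutant_MoMg), host microglia (Control_hostMg and Mutant_hostMg) and donor leptomeningeal cells (Control_leptoMoMac and Mutant_leptoMoMac) had 4 libraries per genotype, and host leptomeningeal cells (Control_leptohostMac and Mutant_leptohostMac) had 2. For host cells, mutant and control name the marrow the mouse received, not the genotype of the cells counted. The labels give no age, and nothing in them ties a library to an animal of its own, so that the p-values reflect the spread among libraries, which may be technical.

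Border-associated macrophages live in the leptomeninges, around blood vessels and in the choroid plexus. Those of the leptomeninges are seeded before birth and largely maintain themselves, whereas irradiation and marrow transplantation let blood-derived cells settle among them and, in smaller numbers, among the microglia. Some of the genes described here encode receptors for clearance and uptake, and the others encode enzymes and secreted proteins. Stab1, Lyve1 and Cd163 encode receptors for modified proteins, hyaluronan and haemoglobin bound to haptoglobin, Folr2 encodes a folate receptor held at the membrane, Cbr2 and Aldh1a2 encode enzymes that act on carbonyls and on retinaldehyde, and F13a1, Pf4 and Ccl24 encode secreted proteins of coagulation and chemotaxis.

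The genes lie on 7 chromosomes in the mm10 build, with positions from the GENCODE M21 annotation. Pf4 spans chr5:90772435-90773383 and Ccl24 chr5:135569937-135573049, far apart on the same chromosome. Cd163 spans chr6:124304656-124330527, Folr2 chr7:101839988-101857194 and Lyve1 chr7:110850607-110863239. Aldh1a2 spans chr9:71215789-71296243, Cbr2 chr11:120729489-120732114, F13a1 chr13:36867178-37050244 and Stab1 chr14:31139013-31168641. A gene on the opposite strand overlaps the 3′ end of Folr2 (Gm10602), F13a1 (Gm49144) and Stab1 (Nt5dc2), and the use of strand in counting is not stated in the labels, so UMIs of these 3 genes are uncertain to that extent.

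Because most of the genes moved together between populations, the stretches upstream of their starts were read for short motifs of factors that act in macrophages. RefSeq promoters on GRCm38.p6 were matched for 7 of the 9 genes (not for Lyve1 and Ccl24), with 2 starts each for Folr2 and F13a1 and so 9 promoters in all, and the 250 bases before each start were searched on both strands. The motif shown is the core of the PU.1 site, GAGGAA or its reverse complement, because PU.1 is the lineage factor of macrophages and 4 of the 9 promoters held 1 copy each, those of 4 genes, against 23.3% of 32851 promoters. The other promoter of F13a1 held none. Capitals mark these letters, and each sequence runs 5′ to 3′ on the strand of its gene. They come from chr5:90772185-90772434 on the plus strand (Pf4) and, on the minus strand, from chr11:120732022-120732271 (Cbr2), chr13:37050245-37050494 (F13a1) and chr14:31168642-31168891 (Stab1).
Pf4: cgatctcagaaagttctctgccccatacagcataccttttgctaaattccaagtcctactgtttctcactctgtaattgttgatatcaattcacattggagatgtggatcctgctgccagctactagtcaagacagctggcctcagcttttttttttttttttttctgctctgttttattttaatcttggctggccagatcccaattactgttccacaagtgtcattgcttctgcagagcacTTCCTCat
Cbr2: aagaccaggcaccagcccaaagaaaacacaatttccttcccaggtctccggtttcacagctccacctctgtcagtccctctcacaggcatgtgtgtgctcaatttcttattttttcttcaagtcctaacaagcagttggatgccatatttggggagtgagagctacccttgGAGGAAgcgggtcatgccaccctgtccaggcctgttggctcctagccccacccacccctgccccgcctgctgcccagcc
F13a1: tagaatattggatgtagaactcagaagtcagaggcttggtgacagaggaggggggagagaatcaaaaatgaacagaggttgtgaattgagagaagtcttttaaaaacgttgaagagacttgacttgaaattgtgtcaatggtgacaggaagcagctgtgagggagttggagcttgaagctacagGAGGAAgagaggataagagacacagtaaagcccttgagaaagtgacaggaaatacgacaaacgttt
Stab1: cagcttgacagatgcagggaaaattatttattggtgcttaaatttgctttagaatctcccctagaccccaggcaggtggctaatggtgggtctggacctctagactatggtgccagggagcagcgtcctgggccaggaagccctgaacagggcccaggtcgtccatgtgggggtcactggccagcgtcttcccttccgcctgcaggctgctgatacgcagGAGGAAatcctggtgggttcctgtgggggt
The match lay 8 bases before the RefSeq start in Pf4, 79 in Cbr2, 66 in F13a1 and 30 in Stab1, counted to its first base. For Cbr2 the 2 annotations differ: the GENCODE start, chr11:120732114, falls within the stretch read. The match in Cbr2 lies inside the GENCODE gene and is upstream only of the RefSeq start. Of the other motifs, the E-box CANGTG was found in 6 of the 9 promoters (39.5% of all promoters), the C/EBP letters TTNCNNAA in 3 (36.8%), the KLF letters GGGNGGGG in 2 (30.8%) and the MAF letters TGCTGA in 3 (16.1%), 2 of them those of Folr2. The RUNX letters TGTGGT and the AP-1 letters TGANTCA were each found in 1, against 14.05% and 6.75% of promoters, and the GATA letters AGATAA in 0, against 9.99%. TGCTGA and TGANTCA can overlap within a longer MAF site, and the other motifs were counted on their own. These matches describe letters in a window and are not measured binding sites.

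Libraries held 479077 to 3066506 UMIs, and 3 UMIs corresponded to 0.978 CPM (UMIs scaled to a common library total of 1000000) in the deepest and 6.26 CPM in the shallowest. A gene with 0 UMIs could have been present up to that level, and these limits cover counting error only. Dnmt3a did not pass the test for genotype in donor microglia (log2 difference -0.09 ± 0.18 (SE), adjusted p = 0.905, edgeR's quasi-likelihood test with Benjamini-Hochberg adjustment) or in donor leptomeningeal cells (0.04 ± 0.17, adjusted p = 1), and UMIs of the mouse gene do not check the human allele. Host microglia carried the 10 homeostatic microglial genes at 2.68 to 3.36% of UMIs, donor microglia at 0.577 to 0.694%, host leptomeningeal cells at 0.374 to 0.817% and donor leptomeningeal cells at 0.0636 to 0.133%. All 10 neutrophil markers were detected in donor leptomeningeal cells and took 3.19 to 8.55% of UMIs there, against 0.170 to 0.512% in host leptomeningeal cells. All 6 choroid plexus and ependymal markers were detected in donor microglia, at 1.66 to 3.49% of UMIs against at most 0.0178% in host microglia. In these bulk samples, fewer cells of a type and less RNA per cell cannot be told apart.

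Stab1, a scavenger receptor, was well above the detection limit in all 4 populations. In host microglia it stood at 943, 842, 929 and 934 CPM in control and 779.5, 895, 965 and 890.2 CPM in mutant chimeras. In donor microglia the values were 1532, 1139.5, 1347 and 1472 CPM in control and 1523, 1038, 1333 and 1040.3 CPM in mutant chimeras. All 8 donor microglia libraries were above all 8 host microglia libraries. Donor leptomeningeal cells held 1596, 1056, 1588 and 1525 CPM in control and 1299.5, 1609, 1339 and 1835 CPM in mutant chimeras, which overlaps the donor microglia. Host leptomeningeal cells were highest, at 3278 and 3940.1 CPM in control and 4009.9 and 4625 CPM in mutant chimeras.

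Cd163, the receptor that clears haemoglobin-haptoglobin complexes, was close to the detection limit in the parenchyma and high in host leptomeningeal cells. Host microglia had 0.485, 2.22, 0.979 and 1.03 CPM in control and 4.02, 0, 2.63 and 3.05 CPM in mutant chimeras. Donor microglia had 2.09, 30.3, 0 and 1.73 CPM in control and 6.91, 3.20, 17.9 and 4.10 CPM in mutant chimeras, so a single library of each genotype stood above the rest. Donor leptomeningeal cells had 72.7, 34.6, 53.7 and 65.7 CPM in control and 42.5, 69.9, 28.4 and 52.6 CPM in mutant chimeras. Host leptomeningeal cells had 423 and 420.3 CPM in control and 581 and 746 CPM in mutant chimeras, with no overlap with any other population.

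Lyve1, a hyaluronan receptor that also marks lymphatic endothelium, followed a similar course. It had 3.39, 1.78, 0.490 and 6.20 CPM in control host microglia and 2.41, 3.50, 3.29 and 1.22 CPM in mutant ones. In donor microglia the control libraries read 0, 15.9, 0 and 13.9 CPM and the mutant libraries 1.97, 2.13, 23.8 and 0 CPM, a wider spread around a similar low level. Donor leptomeningeal cells had 201, 91.6, 138 and 190.4 CPM in control and 213, 226, 109 and 195 CPM in mutant chimeras. Host leptomeningeal cells had 546 and 669.8 CPM in control and 791 and 1033 CPM in mutant chimeras, above every donor library. The lymphatic markers Prox1 and Pdpn together took at most 0.00101% of UMIs in any library, and Prox1 stood at 4.02 ± 1.20 CPM (SD, n = 8) in host microglia, 0.753 ± 1.51 CPM (SD, n = 4) in host leptomeningeal cells and 0.232 ± 0.259 CPM (n = 8) in donor ones.

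Pf4, the platelet factor and chemokine CXCL4, formed steps between all 4 populations. Host microglia had 22.3, 20.5, 17.6 and 19.6 CPM in control and 25.3, 34.0, 34.8 and 28.7 CPM in mutant chimeras. Donor microglia had 432, 322, 348 and 229 CPM in control and 410.4, 290.1, 383 and 271 CPM in mutant chimeras. Each donor library in the parenchyma was thus far above each host library. Donor leptomeningeal cells had 1496, 834, 1465 and 1312 CPM in control and 1283, 1663, 1027 and 1453 CPM in mutant chimeras. Host leptomeningeal cells had 2777 and 3299.9 CPM in control and 3409.5 and 3510.2 CPM in mutant chimeras, the highest of all. Platelet markers, of which 3 of the 10 listed were in the table, did not follow this order when summed. They took 0.0185 to 0.0232% of UMIs in host microglia and 0.00183 to 0.00571% in host leptomeningeal cells. Between donor and host microglia the 3 were divided: 1 passed the test as higher in donor cells, 1 as lower and 1 did not pass. The part of platelet RNA in the Pf4 counts was not tested.

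The metabolic genes were largely leptomeningeal. Folr2 had a lowest, median and highest value of 4.45, 7.67 and 9.30 CPM in host microglia and 3.47, 6.81 and 16.7 CPM in donor microglia, which overlap. It had 148, 293 and 371 CPM in donor leptomeningeal cells, and host leptomeningeal cells had 508 and 727 CPM in control and 741 and 593 CPM in mutant chimeras. Cbr2, a carbonyl reductase, had 4.88, 8.74 and 11.7 CPM in host microglia and 25.6, 34.9 and 51.7 CPM in donor microglia, without overlap. It had 559.6, 919 and 1171 CPM in donor leptomeningeal cells, and 2009 and 2429.6 CPM in control and 2999 and 2856 CPM in mutant host leptomeningeal cells. Aldh1a2, which makes retinoic acid from retinaldehyde, gave 2 UMIs in the 8 donor microglia libraries together and 5 in the 8 host microglia libraries. In the leptomeninges it had 14.4 to 26.7 CPM in donor cells and 15.9 to 23.0 CPM in host cells, and these ranges overlap.

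F13a1, the catalytic subunit of coagulation factor XIII, had 7.12, 9.50 and 16.5 CPM (lowest, median and highest of 8 libraries) in host microglia and 18.1, 35.9 and 75.5 CPM in donor microglia. It had 418, 496 and 652 CPM in donor leptomeningeal cells, and 1015 and 1123 CPM in control and 1056 and 1420.2 CPM in mutant host leptomeningeal cells. F13a1 thus separated all 4 populations, as Pf4 and Cbr2 did. For F13a1 the step between microglia was narrow, from 16.5 CPM in the highest host library to 18.1 CPM in the lowest donor library. How many of all genes separate the 4 populations in this way was not counted, so nothing particular to these genes is read from it. Ccl24, a chemokine that attracts eosinophils, had a lower median in donor than in host microglia (4.19 against 9.50 CPM), though the ranges of 0.987 to 10.4 and 6.01 to 15.2 CPM overlap. It had 40.1, 62.5 and 81.2 CPM in donor leptomeningeal cells, and 207 and 269 CPM in control and 202 and 283 CPM in mutant host leptomeningeal cells.

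**Figure D1:**
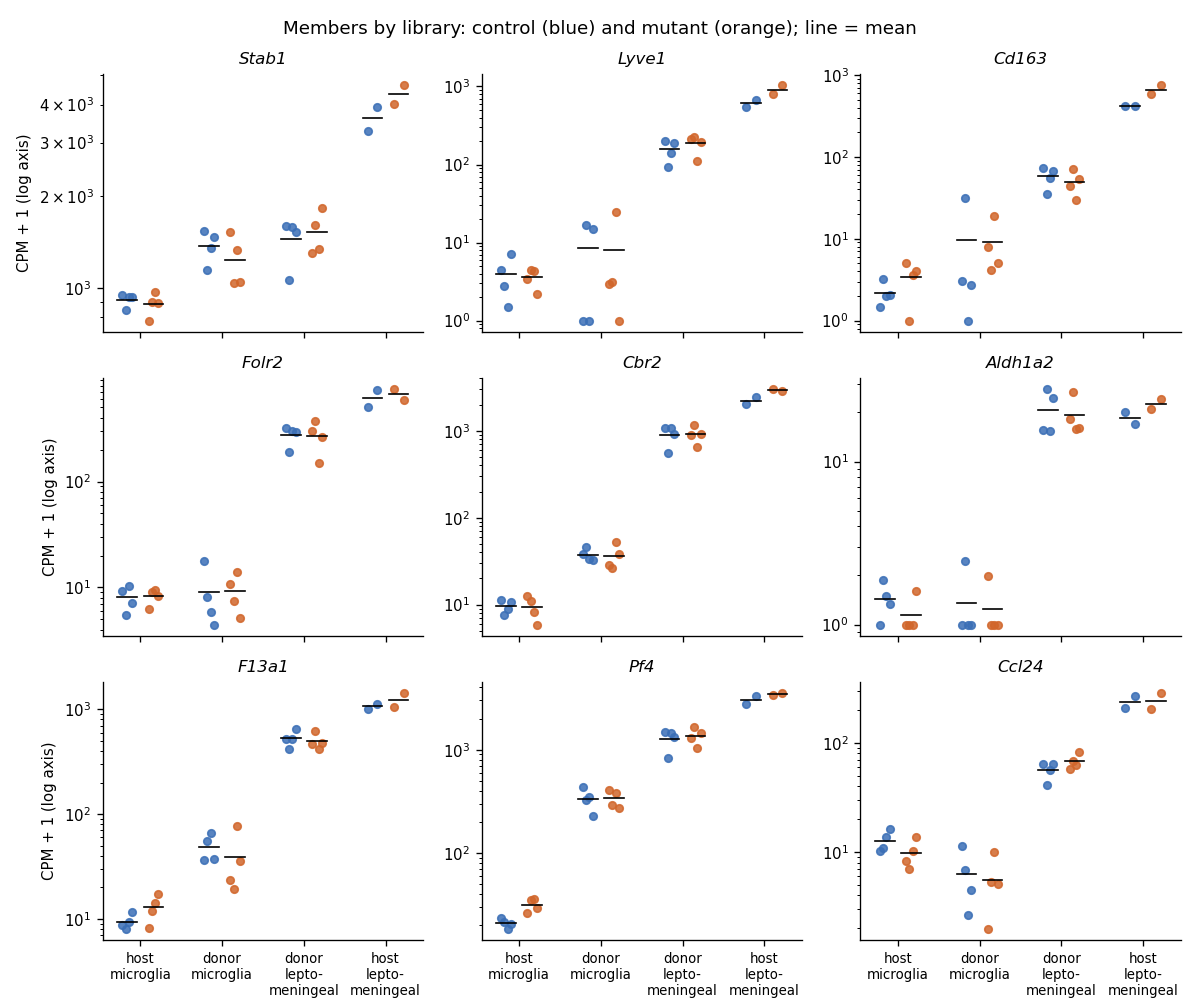
Each panel shows 1 gene, with CPM + 1 on a log axis for every library (points, control blue and mutant orange) of the 4 populations and a line at the mean of each group. Host leptomeningeal libraries lie above all others for 8 of the 9 genes, while Aldh1a2 sits between 14.4 and 26.7 CPM in both leptomeningeal populations.

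In the leptomeninges, donor cells were compared with host cells (n = 8 and 4, both genotypes weighted equally), which asks how far marrow-derived cells carry the resident programme. Of the 9 genes, 8 were lower in donor cells, where 13.3% of all genes tested were called lower and 30.2% in either direction. The receptor Cd163 differed most, by a log2 fold of -3.12 ± 0.25 (SE), which is 8.67 times lower (adjusted p = 2.68e-09), and this fold ranked 72 of 12327 genes from the lowest. Lyve1 fell by 1.91 ± 0.26 (adjusted p = 6.16e-06), Ccl24 by 1.75 ± 0.14 (3.58e-13) and Stab1 by 1.18 ± 0.11 (5.13e-12), all by edgeR's quasi-likelihood test. Cbr2 fell by 1.26 ± 0.15, Pf4 by 1.07 ± 0.14, Folr2 by 1.01 ± 0.17 and F13a1 by 0.94 ± 0.18, the largest adjusted p of these 4 being 2.62e-04. For all 8 genes the donor and host libraries did not overlap in CPM, against 16.0% of all genes that were lower without overlap.

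Aldh1a2 stood apart, with a log2 fold of 0.19 ± 0.24, a 95% interval of -0.28 to 0.65 and an adjusted p of 0.602. The median fold of the 9 genes was -1.18, beside 0.01 for all genes tested. The 36 other genes described for border macrophages, taken from a list written with earlier results of these data known, gave 29 lower, 1 higher and 6 that did not pass the test, with a median of -0.96. Among them Timd4, a receptor for phosphatidylserine, fell by 5.14 ± 0.29 (adjusted p = 8.23e-19) and the scavenger receptor Colec12 had a fold of -3.13 ± 0.25 (4.50e-14), while the inhibitory receptor Clec12a rose by 1.54 ± 0.13 (3.07e-13).

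**Figure D2:**
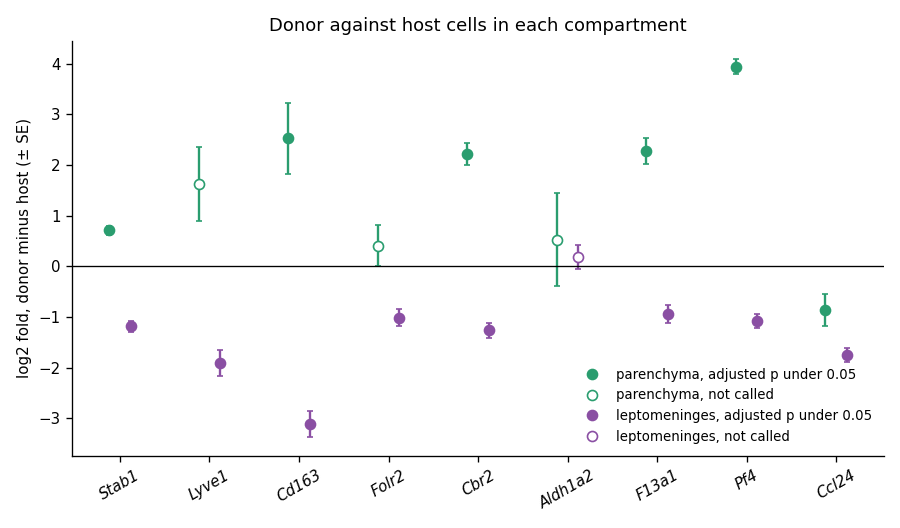
Donor minus host log2 folds (vertical axis, bars ± SE) of the 9 genes in the parenchyma (green) and in the leptomeninges (purple), with filled points for an adjusted p under 0.05. In the leptomeninges 8 filled points lie below 0, from -0.94 to -3.12, and in the parenchyma 5 lie above it, up to 3.94 for Pf4.

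Expressed as a share of the host leptomeningeal mean of the same gene, donor leptomeningeal cells reached 97.5 ± 27.6% for Aldh1a2 (SD over 8 libraries), and 44.3 ± 7.42% for F13a1, 42.3 ± 11.1% for Folr2 and 40.5 ± 8.32% for Pf4. Stab1 reached 37.4 ± 6.04% and Cbr2 35.2 ± 8.21%. The lowest shares were those of Ccl24 (25.4 ± 4.84%), Lyve1 (22.4 ± 6.63%) and Cd163 (9.67 ± 3.03%). In the order from F13a1 to Cbr2, each gene lies within 1 SD of the next, while the ends of that order, F13a1 and Cbr2, are further apart than either SD. The range for Cd163 (5.22 to 13.4%) overlapped that of Lyve1 (12.1 to 29.7%), the next gene in the order, and did not reach that of Ccl24 (16.7 to 33.8%). Donor microglia reached 32.9 ± 5.21% for Stab1 and 10.3 ± 2.18% for Pf4, 3.72 ± 1.77% for F13a1, and between 0.949% and 2.06% for the other 6.

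**Figure D3:**
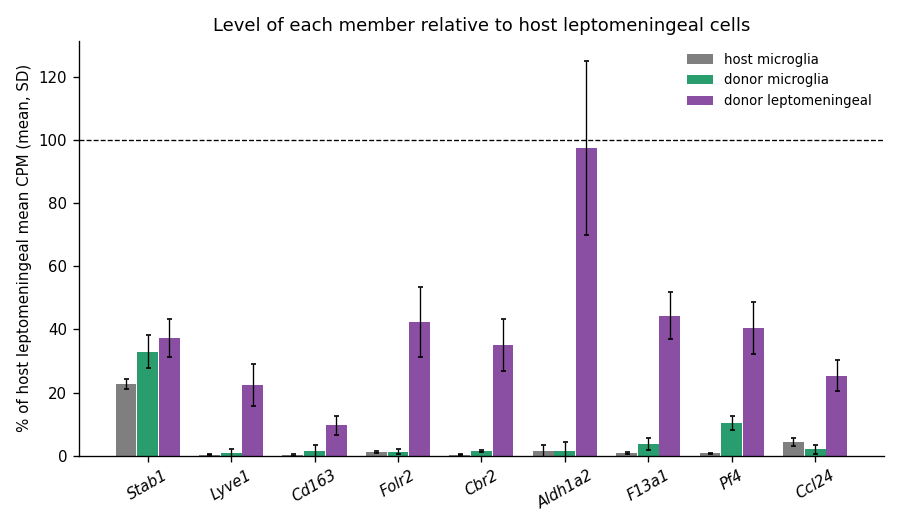
Bars give each gene's mean CPM as a percent of its host leptomeningeal mean, starting at 0, for host microglia, donor microglia and donor leptomeningeal cells, with SD over 8 libraries. Aldh1a2 reaches 97.5% in donor leptomeningeal cells and Cd163 9.67%, and in donor microglia Stab1 (32.9%) and Pf4 (10.3%) have the tallest bars.

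Markers of other cells moved with this comparison, since donor leptomeningeal libraries also held more neutrophil and monocyte transcripts (0.244 to 0.516% against 0.0332 to 0.0483% of UMIs for monocytes), while host libraries held more homeostatic microglial transcripts. Control library 2 and mutant library 3 of the donor leptomeningeal cells had the most neutrophil UMIs of their genotype, at 8.55% and 7.33%. These libraries were also the lowest of their group for 8 and 7 of the 9 genes, and library 2 was the highest for Aldh1a2. Without both, the same 8 genes were called lower, with -2.94 ± 0.25 for Cd163, -1.73 ± 0.25 for Lyve1 and -0.95 ± 0.12 for Pf4. With the neutrophil, monocyte and MHC class II genes taken out of the table and the totals, the folds were -3.13 for Cd163, -1.92 for Lyve1 and -1.08 for Pf4. This takes out the listed genes only and leaves all other RNA of those cells in, so it cannot show their part. Both settings were chosen after seeing the data, and the part of other cells in the donor-to-host difference was not tested.

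To compare the composition of the programme within a library, UMIs of each gene were set against 100 UMIs of Pf4, without a test. Cd163 gave 2.76 to 5.01 UMIs per 100 Pf4 UMIs in donor and 12.7 to 21.3 in host leptomeningeal cells, and Lyve1 gave 9.45 to 16.6 and 19.7 to 29.4. Neither gene overlapped between donor and host, which was so for 0.787% of the other 12326 genes in this direction. Aldh1a2 was higher in donor cells without overlap (0.971 to 3.21 against 0.483 to 0.685), as were 53.6% of all genes, with Pf4 itself lower in donor cells. Stab1, Folr2, F13a1, Cbr2 and Ccl24 overlapped, for instance Cbr2 with 62.7 to 72.6 in donor and 72.3 to 88.0 in host cells.

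**Figure D4:**
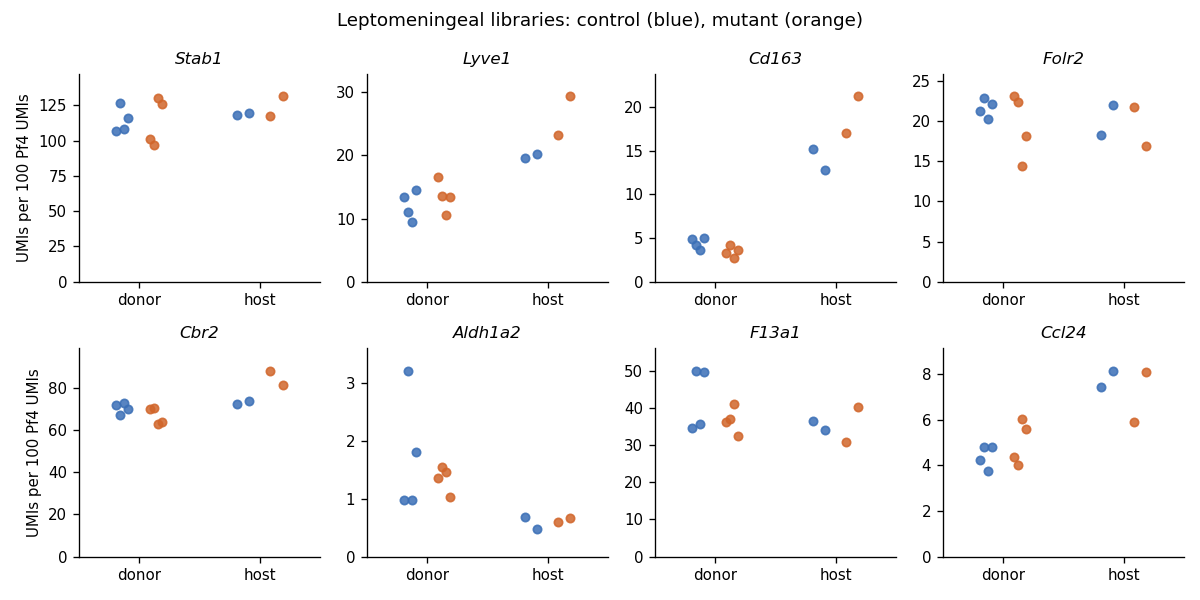
UMIs of 8 genes per 100 Pf4 UMIs in each leptomeningeal library (linear axes from 0, control blue and mutant orange). Donor and host libraries separate for Cd163 (at most 5.01 against at least 12.7), Lyve1 and, in the opposite direction, Aldh1a2, and they overlap for the other 5 genes.

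In the parenchyma the same comparison (n = 8 each) ran mostly the other way. Of the 9 genes, 5 were higher in donor than in host microglia and 1 was lower, where 33.1% of all genes tested were called higher and 27.3% lower. Pf4 had a log2 fold of 3.94 ± 0.15, or 15.3 times higher (adjusted p = 2.92e-20, edgeR's quasi-likelihood test). F13a1 rose by 2.28 ± 0.26 (6.98e-08), Cbr2 by 2.22 ± 0.21 (4.29e-10) and Stab1 by 0.71 ± 0.09 (8.69e-09). These 4 genes did not overlap between donor and host libraries, as was so for 12.5% of all genes that were higher. Their sequences upstream of a RefSeq start are the 4 printed for the GAGGAA letters, which F13a1 holds at 1 of its 2 starts. Of the other genes called in this comparison, Cd163 lacks these letters and no sequence was read for Ccl24, and a relation between letters and folds was not tested. Ccl24 fell by 0.87 ± 0.32 (adjusted p = 0.0188), a call that was lost without mutant donor library 1 (-0.68, adjusted p = 0.0582) and with the 4 parenchymal groups fitted alone (adjusted p = 0.0505).

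Cd163 was called higher in donor microglia, at 2.53 ± 0.70 (adjusted p = 0.00378), but its libraries overlap and the call rests on 1 of them. Without control donor library 2, which had 30.3 CPM, the fold was 1.03 ± 1.13 (adjusted p = 0.459). Lyve1 did not pass the test (1.62 ± 0.73, adjusted p = 0.0607), nor did Folr2 (0.41 ± 0.40, adjusted p = 0.40) and Aldh1a2 (0.53 ± 0.92, adjusted p = 0.65). For Aldh1a2 the ratio of summed UMIs was 1.17 with a 95% counting interval of 0.111 to 7.12, so a difference was not detectable at this depth. Lyve1 was called in 7 of 22 alternatives. These were DESeq2 (1.68, adjusted p = 0.00988) and edgeR fits with 1 library left out (adjusted p from 0.0368 to 0.0485). Its fold without mutant donor library 3, which had 23.8 CPM, was the smallest seen, 0.51.

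Control library 2 and mutant library 3, which held the most Cd163 UMIs among donor microglia, also held the most astrocyte, neuron and oligodendrocyte transcripts of their groups (0.471% and 0.510% of UMIs, against 0.0918 to 0.342% in the other 6 libraries). The choroid plexus genes and Apoe, a lipid carrier that many brain macrophages make, were high in donor microglia as well, and Apoe differed by 4.71 ± 0.11 from host microglia. With the choroid, neural and fibroblast genes and Apoe taken out, a setting chosen after seeing the data, the folds were 3.90 ± 0.15 for Pf4, 2.24 ± 0.27 for F13a1, 2.18 ± 0.22 for Cbr2 and 2.49 ± 0.71 for Cd163. This too takes out the listed genes only, and the part of choroid plexus or neural cells in these folds was not tested. In the list of 36 other border macrophage genes, 25 were higher in donor microglia, 5 lower and 6 did not pass, with a median of 2.10, and the membrane protein gene Ms4a7 rose by 5.43 ± 0.15 and the mannose receptor gene Mrc1 by 3.66 ± 0.12.

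Whether donor and host cells differed by the same amount in both compartments was tested as the difference between the 2 log2 folds, which uses all 8 groups. It was called for 7 of the 9 genes, all with a lower donor-to-host fold in the leptomeninges, where 23.2% of all genes were called in that direction and 42.2% in either. The difference was -5.64 ± 0.80 for Cd163 (adjusted p = 7.68e-06), -5.01 ± 0.20 for Pf4 (7.89e-19), -3.53 ± 0.83 for Lyve1 (0.00161) and -3.48 ± 0.26 for Cbr2 (9.94e-12). It was -3.22 ± 0.32 for F13a1 (2.34e-08), -1.89 ± 0.14 for Stab1 (8.45e-15) and -1.42 ± 0.46 for Folr2 (0.0156), by edgeR's quasi-likelihood test. Ccl24 (-0.88 ± 0.39, adjusted p = 0.0684) and Aldh1a2 (-0.34 ± 0.80, adjusted p = 0.79) did not pass. Leaving out control donor microglia library 1 ended the call for Folr2 (-1.15, adjusted p = 0.0856), and leaving out mutant donor microglia library 3 ended that for Lyve1 (-2.42, adjusted p = 0.110). Cd163 was called in all 36 alternatives, but its difference ran from -5.86 to -4.16, with an adjusted p of up to 0.0473 over them. That of Pf4 ran from -5.09 to -4.88, so the order of these 2 genes is not fixed. The parenchymal call of Cd163 rests on 1 library, as given above. Ccl24 passed with DESeq2's size factors (adjusted p = 0.047), with DESeq2's test (0.0217) and with replicate numbers as a block (0.0203).

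Between compartments, all 9 genes were higher in leptomeningeal than in parenchymal cells, both in donor cells (30.5% of all genes called higher) and in host cells (31.1%). These comparisons share their libraries with those above. In host cells the folds were 8.38 ± 0.38 for Cd163, 8.37 ± 0.19 for Cbr2, 8.15 ± 0.38 for Lyve1 and 7.22 ± 0.17 for Pf4. F13a1 differed by 7.02 ± 0.23, Folr2 by 6.68 ± 0.23, Aldh1a2 by 6.06 ± 0.41, Ccl24 by 4.75 ± 0.17 and Stab1 by 2.32 ± 0.11. For Cd163, Cbr2 and Lyve1 these folds ranked 6, 7 and 9 of 12327 genes from the highest. In summed UMIs, Aldh1a2 was 67.4 times higher in host leptomeningeal cells than in host microglia, with a 95% counting interval of 27.9 to 213.

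In donor cells the largest compartment folds belonged to Aldh1a2 (5.72 ± 0.46), Folr2 (5.26 ± 0.25), Cbr2 (4.89 ± 0.16) and Lyve1 (4.63 ± 0.40). Ccl24 differed by 3.87 ± 0.23, F13a1 by 3.80 ± 0.20, Cd163 by 2.74 ± 0.39, Pf4 by 2.21 ± 0.13 and Stab1 by 0.43 ± 0.09, and the largest adjusted p of the 9 was 1.03e-04. Donor libraries of the parenchyma and leptomeninges overlapped for Stab1 and Cd163 and did not for the other 7, as for 10.3% of genes that were higher in the leptomeninges. Without control donor microglia library 2 the Cd163 fold was 4.17, the highest over the alternatives. Against host leptomeningeal cells, donor microglia were lower for all 9 genes (21.6% of all genes called lower), from -1.61 ± 0.11 for Stab1 to -6.53 ± 0.40 for Lyve1.

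None of the 9 genes passed the test for the genotype of the marrow at an adjusted p under 0.05. This was so in donor microglia (0 of 9, against 0.0892% of all genes), in host microglia (0.0649%), in donor leptomeningeal cells (0.0487%) and in host leptomeningeal cells, where 0.0% of genes were called by edgeR's quasi-likelihood test, 666 genes had an unadjusted p under 0.05 and DESeq2 called 25. DESeq2 called 0 of the 9 genes in each population as well. With the groups of each comparison fitted alone, only 4 of the 9 genes passed the filter on low counts in donor microglia and 6 in host microglia, against 9 in both leptomeningeal populations, so that in the parenchyma the count of 0 includes genes too low there to be tested on their own. Among these tests by edgeR, Pf4 in host microglia had an unadjusted p of 0.00749 and the others had one above 0.05. In donor leptomeningeal cells, the deeper of the donor populations, the folds ran from -0.21 ± 0.33 for Cd163 to 0.30 ± 0.17 for Ccl24. The 95% interval was -0.22 to 0.43 for Pf4, -0.16 to 0.35 for Stab1 and -0.32 to 0.36 for Cbr2. In donor microglia it was -0.31 to 0.40 for Pf4 and -0.40 to 0.12 for Stab1, while those of Lyve1 (-1.98 to 2.01) and Cd163 (-1.87 to 1.58) were far wider at these low counts.

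Host leptomeningeal cells from mice with mutant marrow had higher folds for all 9 genes without a call, from 0.09 ± 0.23 for Ccl24 to 0.70 ± 0.40 for Cd163 (adjusted p = 0.938). With 2 libraries per genotype, the mutant libraries were above the control ones without overlap for 6 genes (Stab1, Lyve1, Cd163, Cbr2, Aldh1a2 and Pf4), as for 15.3% of all genes. Markers of other cells moved with these folds: the UMI share of the 10 homeostatic microglial genes was 0.817 and 0.554% for control marrow against 0.425 and 0.374% for mutant marrow, with folds below 0 for all 10 (median -0.71, none called). The share of MHC class II genes was 2.22 and 2.61% for mutant marrow against 1.89 and 2.12% for control marrow, and that of fibroblast genes 0.0109 and 0.0154% against 0.00808 and 0.00786%. Their part in the members' folds was not tested. Pf4 in host microglia was 20.0 ± 1.94 CPM in control and 30.7 ± 4.52 CPM in mutant chimeras (SD, n = 4 each), and the 4 mutant libraries were above the 4 control libraries, as for 1.61% of genes. In the same libraries the 7 MHC class II genes took 0.172 to 0.219% of UMIs in control and 0.220 to 0.369% in mutant chimeras, with 3 of the 7 called higher and a median fold of 0.96. The 36 other border macrophage genes summed to 0.465 to 0.617% and 0.660 to 0.703%, also without overlap, though none was called and their median fold was 0.01. Their part in the Pf4 difference was not tested. The Pf4 fold of 0.64 ± 0.22 had an adjusted p of 1 over all genes and between 0.609 and 1 over the alternatives. The difference in genotype effect between donor and host cells passed for 0 of the 9 genes in the leptomeninges (0.00811% of all genes called) and in the parenchyma (0.0324%), where the unadjusted p was 0.0462 for Pf4.

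**Figure D5:**
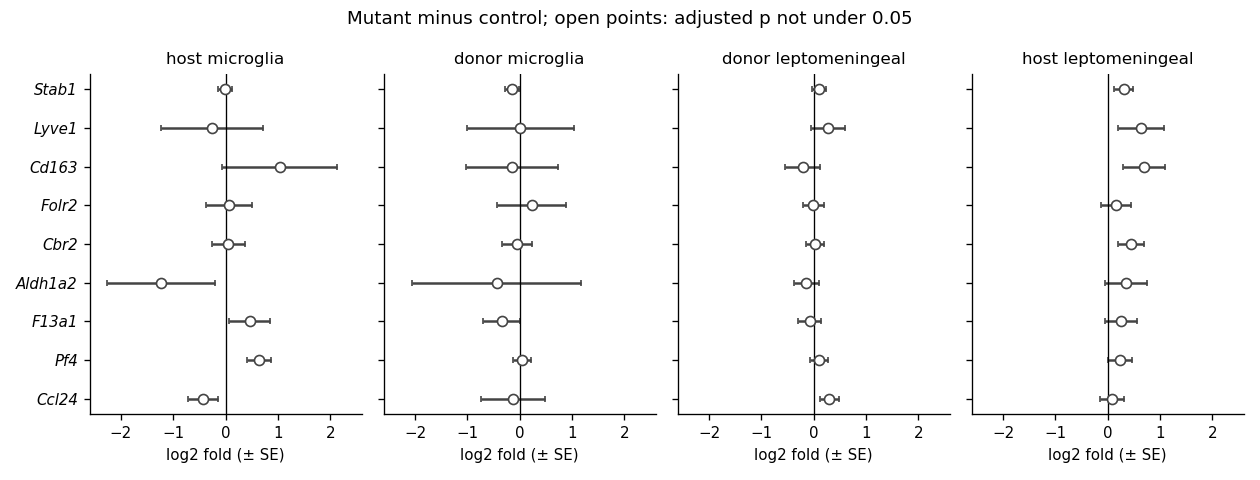
Mutant minus control log2 folds (horizontal axis, bars ± SE) of the 9 genes in the 4 populations, with open points where the adjusted p was not under 0.05. All 36 points are open, and the 9 points of host leptomeningeal cells lie between 0.09 and 0.70.

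Genes that share a pathway with the members were counted from lists written with earlier results of these data known. Over all genes tested, 13.3% were lower and 16.9% higher in donor than in host leptomeningeal cells. Of 13 tested genes for uptake and breakdown of haem and iron, the pathway of Cd163, 7 were lower in donor than in host leptomeningeal cells and 0 higher, among them the haem-degrading enzyme gene Hmox1 (-0.79 ± 0.12, adjusted p = 1.13e-06), the biliverdin reductase gene Blvrb (-0.84 ± 0.11) and the iron exporter gene Slc40a1 (-1.27 ± 0.21). In donor microglia 5 of these 13 were higher and 3 lower, near the 33.1% and 27.3% of all genes there. Of 13 genes for scavenger receptors and hyaluronan binding, 5 were lower and 4 higher in donor leptomeningeal cells, and the hyaluronan receptor gene Cd44 rose by 2.16 ± 0.16 where Lyve1 and Stab1 fell. Of 13 genes of folate uptake and one-carbon metabolism, 3 were lower and 3 higher, close to the shares over all genes, and the proton-coupled folate transporter gene Slc46a1 fell by 2.00 ± 0.20, as Folr2 did by a smaller amount.

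Of 12 tested genes of retinoic acid metabolism and reception, 3 were higher and 1 lower in donor leptomeningeal cells, including the receptor gene Rara (1.31 ± 0.18), while Aldh1a2 did not pass. Of 11 genes of coagulation and fibrinolysis, 4 were higher and 3 lower, and the genes for coagulation factors V and X, F5 and F10, rose by 3.17 ± 0.42 and 3.15 ± 0.32 where F13a1 fell. Of 13 chemokines and chemokine receptors, 5 were higher and 2 lower, with Ccl6 at 0.91 ± 0.12 and Ccl9 at 1.56 ± 0.20 higher where Ccl24 fell. Of 10 carbonyl-reducing enzymes, 5 were lower and 1 higher, and Cbr1 fell by 0.73 ± 0.15 and Dcxr by 0.73 ± 0.11, beside Cbr2. The median folds of these lists were -0.36 for haem and iron, -0.20 for scavenger and hyaluronan, -0.12 for folate, 0.35 for retinoid, 0.38 for coagulation, 0.28 for chemokine and -0.33 for carbonyl genes, beside 0.01 for all genes. No list was tested against the share of all genes (16.9% higher and 13.3% lower in donor leptomeningeal cells), and nothing particular to a list is read from its count.

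Over the 28 libraries, the log2 CPM of the members correlated with each other with Pearson's r between 0.71 (Pf4 and Ccl24) and 0.99 (Cbr2 and F13a1). These values describe the same 28 libraries of 4 populations, which share their depth and their other cells, and mostly reflect steps between populations. Among 8467 other genes with a mean of at least 10 CPM, those most like Pf4 were the phospholipid transfer protein gene Pltp (r = 0.994), Mrc1 (0.989) and Dab2 (0.987). Lyve1 and Cd163 were both most like the lectin genes Cd209g (0.970 and 0.968) and Cd209f (0.962 and 0.966). Cbr2 and F13a1 shared the chemokine gene Ccl7 (0.990 and 0.992) and the transcription factor gene Klf4 (0.982 and 0.975). Folr2 was most like the chemokine gene Ccl2 (0.980), Ccl24 like the Fc receptor gene Fcgrt (0.957), Stab1 like Plekhg5 (0.961) and Aldh1a2 like Ap2a2 (0.975).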

How the data were processed

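RNA of 28 libraries in 8 groups was analysed from a single table. The authors deposited UMI counts per gene symbol, counts divided by a size factor (a normalized signal) and rlog values on a log2 scale, per the file headers. Only the counts were used. The submitters' processing notes name the mm10 build. The aligner and counter are not given in the sources used here.

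CPM is UMIs scaled to a library total of 1000000. Tests used edgeR 4.0.16 (quasi-likelihood, robust, TMM scaling, filterByExpr by group, 1 mean per group over all libraries) in R 4.3.3, with Benjamini-Hochberg adjustment at 0.05 over 12327 genes for each of 12 contrasts. Folds are log2 ± SE. On data simulated for the leptomeningeal donor-to-host comparison, with 12327 genes, changes of 1 on the log2 scale were recovered in 93% of cases and changes of 2 in 100%. The changes were placed only in genes with a higher mean CPM than Aldh1a2, so these rates do not cover that gene. In the simulation every gene left unchanged had the same mean in all populations. In the real comparison 30.2% of genes were called, so the rates need not hold for it. Likeness is Pearson's r of log2 CPM with a prior count of 2.

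The members and lists were chosen with earlier results of these data known. Genes named are the members, the 6 most significant other border macrophage genes and 3 per pathway list in the leptomeningeal donor-to-host comparison, the 3 most like each member, the first 3 of each marker list, and Dnmt3a, Cx3cr1, Mrc1, Ms4a7, Apoe, Tmem119, Ccr2 and H2-Ab1. Alternatives were DESeq2 1.42.0, its size factors, no low-count filter, the contrast's groups alone, replicate numbers as a block and each library left out. Marker lists of other cells are given as percent of UMIs computed from the counts.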

Additional observations from a re-analysis of the deposited data

Results flagged for a closer look

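In 54 checks of a gene within a group of 4 libraries, a single library stood far from the other 3 in 7, and chance gives about 1 in 20. Cd163 at 30.3 CPM in control donor microglia library 2 and Lyve1 at 23.8 CPM in mutant donor microglia library 3 were high. Stab1 was low at 842 CPM in control host microglia library 2 and at 1056 CPM in control donor leptomeningeal library 2. Aldh1a2 at 1.44 CPM in control donor microglia library 2, 0.987 CPM in mutant donor microglia library 1 and 0.611 CPM in mutant host microglia library 4 rests on 1 UMI each. The other libraries of these groups held no UMI of it, and such a pattern always passes the cut-off.

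The donor minus host fold differed between leptomeninges and parenchyma in the tests of the difference itself. On the log2 scale it was -5.64 for Cd163, -5.01 for Pf4, -3.53 for Lyve1, -3.48 for Cbr2, -3.22 for F13a1, -1.89 for Stab1 and -1.42 for Folr2. Over the alternatives it ran from -5.86 to -4.16 for Cd163, and the calls for Lyve1 and Folr2 were each lost with 1 library left out.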

How the results depend on the processing

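Over the alternatives run, the number of the 9 genes called was 8 in the leptomeningeal donor-to-host comparison, 9 in both compartment comparisons and between donor microglia and host leptomeningeal cells, and 0 in each genotype comparison. It was 4 (with the groups alone, where 6 of the 9 were tested) to 7 (with DESeq2 and with some single libraries left out) in the parenchymal donor-to-host comparison. For the difference between compartments it was 6 to 8. Alternatives were followed for the folds of all 9 genes in the comparisons of origin and compartment and for 3 genotype folds (Pf4 in host microglia, Cd163 and Lyve1 in host leptomeningeal cells). Among these the folds that changed sign were those of Aldh1a2, which ran from -0.85 to 1.20 in the parenchyma and from -1.01 to 1.02 for the difference between compartments with 1 library left out. In the parenchyma it was -0.85 without control donor microglia library 2 and -0.62 without mutant donor microglia library 1, and the difference between compartments was 1.02 and 0.80 without the same libraries, which held its only UMIs among donor microglia. Same-numbered libraries of a genotype did not deviate together (36 pairs, mean correlation -0.0023, 0 above 0.1). Counting noise over all genes can hide a shared animal, so this check cannot decide whether the numbers pair the samples. With the replicate block, 6 genes were called in the parenchyma, 8 in the leptomeninges and 8 for the difference between compartments. Over all genes, calls for genotype were 11 in donor microglia (81 with DESeq2, 17 without the filter, 4 with the groups alone, 544 without control library 2), 8 in host microglia (15 with DESeq2, 0 alone), 6 in donor leptomeningeal cells (3 without the libraries richest in neutrophil UMIs) and 0 in host leptomeningeal cells (25 with DESeq2, 17 alone, 4 with the block, 3 with DESeq2 size factors, 2 unfiltered). The difference in genotype effect gave 1 and 4 (7 and 14 with DESeq2) in leptomeninges and parenchyma. With TMM-scaled totals, Stab1 averaged 785 CPM in host microglia and 1727 CPM in donor leptomeningeal cells. Depth limits Lyve1, Cd163, Folr2 and Aldh1a2 in the parenchyma, where libraries held at most 24, 21, 19 and 2 UMIs of them. It also limits Ccl24 in donor microglia, with at most 9 UMIs in a library.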
